A study of Mus musculus with 17 samples.

Results

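Meg3, Rian, Mirg, Miat, Kcnq1ot1 and Snhg11 are long noncoding RNAs that are known to stay in or be processed in the nucleus. They were taken by name from a table of nuclear RNA counts and make up 6 of its 26131 genes. Malat1, the RNA the study set out to lower, is also long, noncoding and nuclear, so the values below show how other RNAs of this kind stood in the same nuclei. Only nuclei were measured, so the share of each RNA outside the nucleus was not measured. GENCODE lists Meg3, Mirg and Miat as lincRNA, Rian as a processed transcript, Kcnq1ot1 as antisense and Snhg11 as protein coding, so the annotation does not call the last of them noncoding.

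Meg3, Rian and Mirg lie one after another in an imprinted region and are expressed from the chromosome inherited from the mother. Rian carries small nucleolar RNAs and Mirg carries microRNAs, which are cut from the longer transcripts, and the region is known for strong expression in brain. Miat, also called Gomafu, collects in spots in the nuclei of neurons and is known to bind splicing factors. Kcnq1ot1 is transcribed antisense within Kcnq1 from the chromosome inherited from the father and silences neighbouring genes there. Snhg11 is a host gene of small nucleolar RNAs with strong expression in neurons.

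Droplet-based counts came from sorted nuclei of frozen posterior brain of 17 female mice aged 2.3 months that all carried the human transferrin receptor (TfR) as a homozygous knock-in. Saline was given to 4 mice, an unconjugated antisense oligonucleotide to Malat1 (called Malat1 ASO) to 4 mice at 2 mg per kg, the oligonucleotide on an antibody to TfR (anti-TfR:Malat1) to 6 mice at 50 mg per kg, and the oligonucleotide on a TfR-binding carrier (OTV:Malat1) to 3 mice at 50 mg per kg. Each mouse received 4 intravenous doses over 24 days, and brains were collected 72 hours after the last. The labels list 17 samples, taken here as 17 mice without saying more of their source, so p-values measure the spread between these samples. The labelled doses of the free oligonucleotide and of the conjugates differ, and what mass they refer to is not stated.

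The 17 libraries held 13841 to 18365 nuclei and 55393588 to 79866411 UMIs (unique molecular identifiers, each standing for 1 counted RNA molecule). The median UMIs per nucleus ranged from 2894 to 4052. The 3 OTV:Malat1 libraries, at 2894 to 3095, were all below the anti-TfR:Malat1 libraries, at 3181 to 4052, so depth differed between these 2 groups. Of the nuclei in a library, 53.1% to 68.3% were neurons, so a sum over all nuclei moves with that share. The authors' doublet calls covered 16.8% of the nuclei, which were kept. Of all nuclei, 7.16% carried a barcode found in 2 or more libraries, with 50 to 110 barcodes shared by a pair of libraries. Levels are given as CPM, a gene's UMIs per 1000000 UMIs of the same nuclei, Malat1 included. Malat1 itself stood at 33422 to 43491 CPM over all nuclei of OTV:Malat1 mice. The lowest mouse was at 46498 CPM in saline, at 45998 in Malat1 ASO and at 46373 in anti-TfR:Malat1. In oligodendrocytes its change in OTV:Malat1 against saline was -3.07 on the log2 scale (SE 0.20, adjusted p = 4.5e-08, edgeR). The deposited table also names 4 batches, and what these are is not given in the sources used here. Each batch held 1 saline and 1 Malat1 ASO mouse and 1 or 2 anti-TfR:Malat1 mice, and OTV:Malat1 mice were in batches 2, 3 and 4.

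On the mm10 build, Meg3 spans chr12:109541001-109571726, Rian chr12:109603940-109661716 and Mirg chr12:109729764-109749460, all on the plus strand, so that 208460 bases hold the 3 genes. On the same strand within these spans GENCODE lists 2 microRNA genes in Meg3, 13 small nucleolar RNA genes and 4 microRNA genes in Rian, and 14 microRNA genes in Mirg. Miat spans chr5:112213228-112229395 on the minus strand. Kcnq1ot1 spans chr7:143203458-143296549 on the minus strand and lies within Kcnq1 on the other strand. Snhg11 spans chr2:158375638-158386145 on the plus strand and holds 2 small nucleolar RNA genes. No label says if counting used strand, so some counts given to Kcnq1ot1 could come from Kcnq1. Meg3, Mirg and Miat also overlap a gene on the other strand (Gm26906, Gm24321 and Gm26953). Some counts given to Rian could come from genes annotated within it, which lie on its own strand. Kcnq1, a potassium channel subunit, stood at 2.8 ± 0.31 CPM (SD, n = 4) in saline neurons, against 526 ± 46.0 CPM for Kcnq1ot1.

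The promoters of Meg3, Snhg11 and Kcnq1ot1 are shown because Meg3 and Snhg11, from different chromosomes, had closely alike patterns across clusters, and Kcnq1ot1 had the pattern least tied to neurons. They are RefSeq sequences of GRCm38.p6 from 250 bases before to 50 bases after the transcript start, on the gene's strand. Capitals mark TGACGTCA, the cAMP response element, in Meg3 (chr12:109540746-109541045, plus strand), and CCAAT boxes in Kcnq1ot1 (chr7:143296498-143296797, minus strand). The Snhg11 promoter (chr2:158375463-158375762, plus strand) holds neither and has no capitals.
Meg3: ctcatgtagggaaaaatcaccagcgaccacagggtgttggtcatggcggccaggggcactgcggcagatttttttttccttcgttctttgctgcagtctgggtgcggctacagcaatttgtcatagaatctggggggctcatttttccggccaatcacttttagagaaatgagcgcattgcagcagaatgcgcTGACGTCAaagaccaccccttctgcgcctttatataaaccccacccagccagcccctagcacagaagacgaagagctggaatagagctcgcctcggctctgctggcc
Kcnq1ot1: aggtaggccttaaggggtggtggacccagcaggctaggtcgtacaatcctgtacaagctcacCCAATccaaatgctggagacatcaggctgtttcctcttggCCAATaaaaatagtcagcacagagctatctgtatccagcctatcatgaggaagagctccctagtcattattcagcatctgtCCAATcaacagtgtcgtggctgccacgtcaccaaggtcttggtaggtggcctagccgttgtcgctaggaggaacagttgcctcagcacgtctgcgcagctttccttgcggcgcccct
Snhg11: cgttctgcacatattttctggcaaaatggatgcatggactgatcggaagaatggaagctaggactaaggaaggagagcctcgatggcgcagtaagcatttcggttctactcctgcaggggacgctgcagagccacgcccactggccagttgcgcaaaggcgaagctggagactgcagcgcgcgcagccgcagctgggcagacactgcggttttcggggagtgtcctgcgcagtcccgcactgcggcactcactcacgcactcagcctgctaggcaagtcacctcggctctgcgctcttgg

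The letters were searched on both strands of all 32851 promoters of the RefSeq table. TGACGTCA was found in 1.79% of them, and among the members in Meg3 only, 57 bases before the start. CCAAT was found in 37.4% of promoters and 3 or more times in 3.37%; Kcnq1ot1 had 3 matches, at 188, 148 and 67 bases before the start, and Meg3 and Mirg had 1 each. TATAAA was found in 13.6% of promoters and, among the members, only in Meg3, with 2 overlapping matches on opposite strands at 29 and 25 bases before the start. The number of CpG dinucleotides was 25 in Miat, 21 in Snhg11, 13 in Meg3, 10 in Mirg, 9 in Kcnq1ot1 and 0 in Rian, against a median of 7 over all promoters. The values are for the first listed promoter of Meg3. A second one, for a start inside the gene, held none of the 3 motifs. The only windows of Mirg (chr12:109734731-109735030) and Miat (chr5:112228899-112229198) also lie inside the spans that GENCODE gives these genes. Their values are thus for starts inside the annotated gene. A match describes letters in this window and no binding was measured.

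Meg3, Rian, Mirg, Miat and Snhg11 were far higher in neurons than in other nuclei, and Kcnq1ot1 was more even over the classes. The classes joined the authors' cell type labels with their clusters where leading genes matched, and all comparisons between classes are descriptions with no test, since the clusters were made from the same counts. In the 4 saline mice Meg3 stood at 7769, 8358, 8533 and 7442 CPM in neurons and at 271, 356, 400 and 482 CPM in oligodendrocytes, the myelin-forming cells. The next class after neurons, cluster 13, stood at 594 to 868 CPM. Cluster 13 carried the oligodendrocyte precursor genes Pdgfra, Vcan and Cspg4 as leading genes although most of its nuclei were labelled neurons, so it is called by its number.

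Below neurons, the ranges of neighbouring classes overlapped for Meg3, in the order cluster 13, vascular (620 ± 165 CPM), microglia (549 ± 111), perivascular macrophages (543 ± 148), astrocytes (468 ± 162) and oligodendrocytes (377 ± 87.8; SD, n = 4 saline mice each). Rian, which hosts small nucleolar RNAs, stood at 694 ± 39.1 CPM in neurons and at 111 ± 13.9 in cluster 13, the next highest. Mirg, the microRNA host, stood at 122 ± 19 CPM in neurons, and each other class averaged 15.6 CPM or less. Miat stood at 144 ± 6.07 CPM in neurons and 39.8 ± 13 in cluster 13, with the other 5 classes at 6.87 to 24.1. For each of the 6 RNAs the lowest saline neuron value was above the highest saline value of every other class.

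**Figure D1:**
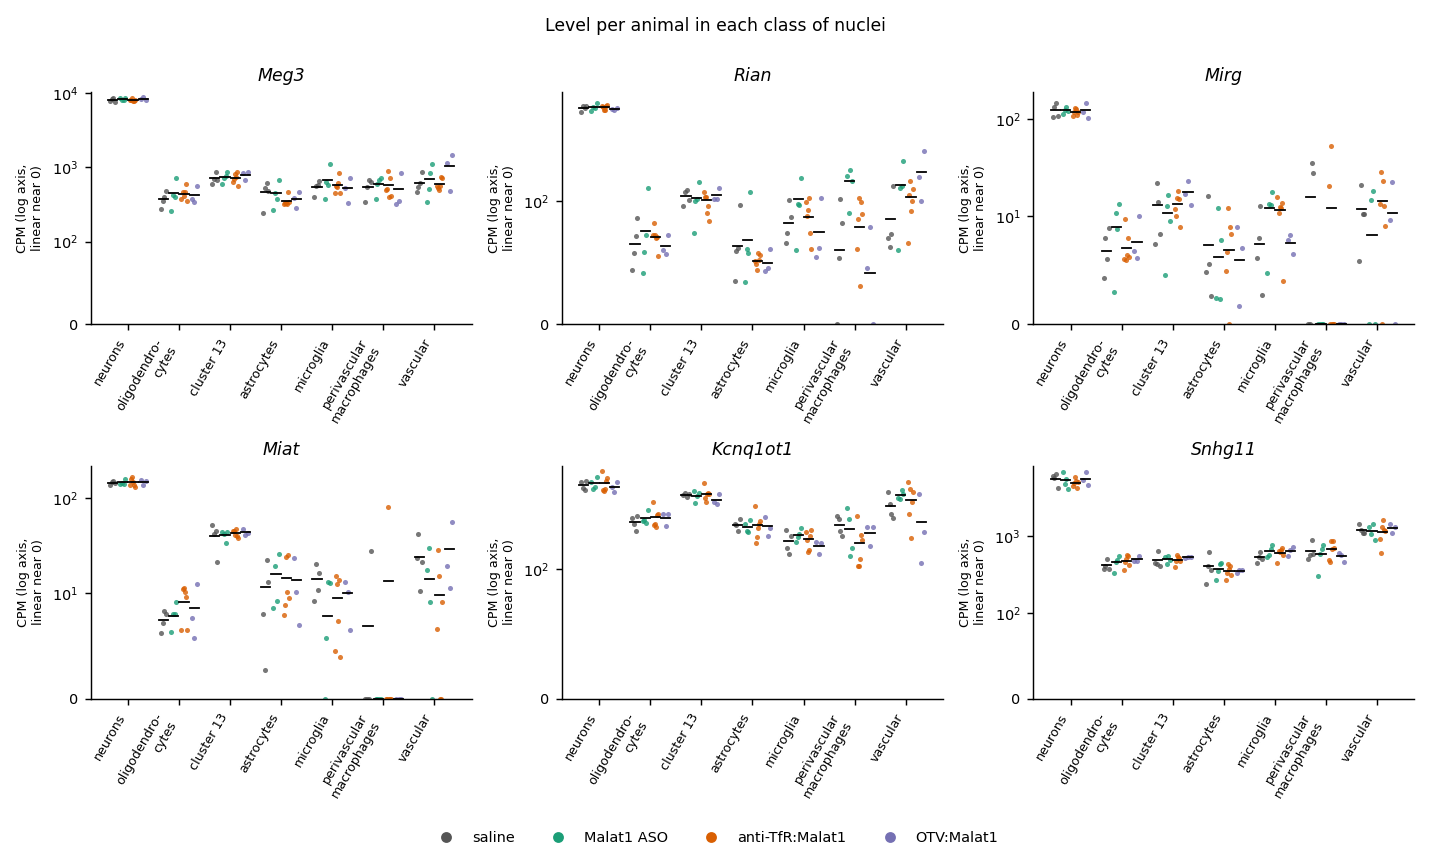
CPM of each RNA (vertical axis, logarithmic and linear near 0) in the 7 classes of nuclei. Points are mice, coloured by group, and black lines are group means. Neurons stand apart from the other classes for Meg3, Rian, Mirg, Miat and Snhg11. For Kcnq1ot1, neurons overlap with cluster 13 and vascular nuclei within the anti-TfR:Malat1 group only.

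Kcnq1ot1 was the least neuronal of the 6. In saline mice it stood at 559, 496, 477 and 571 CPM in neurons and at 273, 245, 212 and 287 CPM in oligodendrocytes. Cluster 13 had 436 ± 14 CPM, vascular nuclei 347 ± 82.6 and microglia, the lowest class, 174 ± 37.8. The ranges of neurons and cluster 13 did not meet (lowest neuron value 477, highest cluster 13 value 452 CPM), and all other neighbours in the order overlapped.

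Outside neurons, Snhg11 was highest in the vascular class. Its saline mean was 5508 ± 970 CPM in neurons, 1196.5 ± 147 in vascular nuclei and 404 to 628 in the other 5 classes. The 4 saline vascular values, 1084 to 1403 CPM, were all above those of perivascular macrophages, the next class, whose highest was 877. The vascular class holds several cell types, and splitting its nuclei by which marker list had the most UMIs was a choice made after the value was seen. Over the saline mice, 127 nuclei led by fibroblast-like markers (Slc6a13, Dcn, Col1a2) had 1823 CPM of Snhg11, 101 led by mural markers had 893 and 60 led by endothelial markers had 622; another 52 had no single leading list. Meg3 in the same 3 sets was 524, 794 and 502 CPM, so it was not highest in the fibroblast-like set. Per saline mouse, Snhg11 was 1534 to 2128 CPM in the fibroblast-like set and 297 to 1084 CPM in the endothelial set, from few nuclei. Snap25, a synaptic vesicle fusion protein gene, Rbfox3, Syt1 and Celf2, the neuron marker list, summed to 1312 to 1878 CPM in saline vascular nuclei and to 1511 to 1817 in microglia, most of it Celf2 in both classes.

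RNA set free from broken cells can give counts in nuclei that do not express a gene, so the levels outside neurons were read beside those of neuron markers. As a percent of the level in neurons of the same saline mouse, Meg3 stood at 4.73 ± 1.26% in oligodendrocytes and 6.86 ± 1.54% in microglia (SD, n = 4). Syt1, a synaptic vesicle calcium sensor gene, stood at 6.21 ± 1.08% and 8.44 ± 1.65%, and Rbfox3, which encodes the neuronal nuclear protein NeuN, at 3.31 ± 0.79% and 6.17 ± 2.60%. Snap25 stood at 15.9 ± 4.23% and 21 ± 5.23%, and Celf2, an RNA-binding protein gene, at 3.31 ± 0.73% and 22.4 ± 0.43%. The mean of Meg3 was thus below those of Syt1 and Snap25 and above that of Rbfox3 in both classes. Kcnq1ot1 stood at 48.3 ± 2.61% in oligodendrocytes and 32.8 ± 4.61% in microglia, above all 4 neuron markers in every saline mouse. Snhg11 stood at 22.2 ± 4.01% in vascular nuclei, where Syt1 stood at 9.20 ± 4.23% and Snap25 at 22.8 ± 8.74%. Miat stood at 27.7 ± 9.66% in cluster 13, where Snap25 stood at 33.3 ± 4.89% and Syt1 at 6.94 ± 1.39%. The part of free RNA in these levels was not tested.

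**Figure D2:**
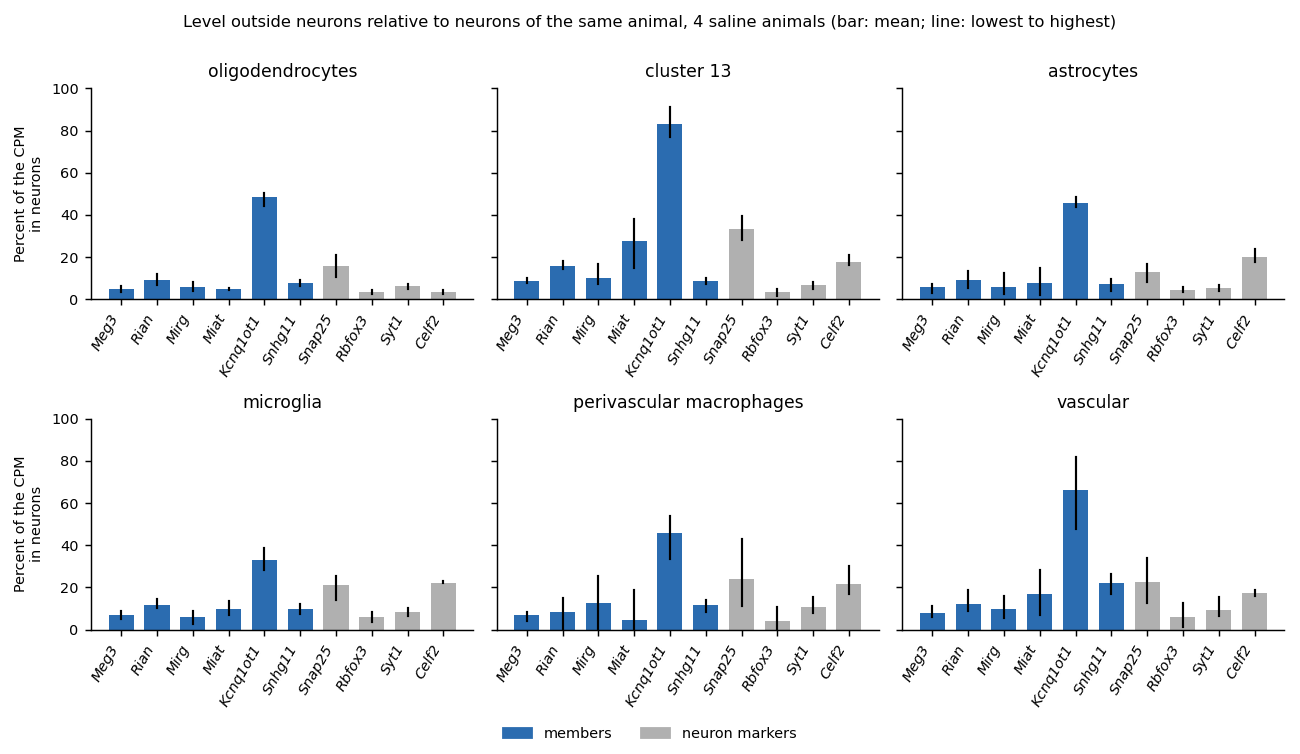
Level of each RNA and of 4 neuron markers outside neurons, as a percent of the CPM in neurons of the same mouse (vertical axis), by class. Bars are means of the 4 saline mice and lines run from the lowest to the highest mouse; Kcnq1ot1 is the tallest bar in every panel, and Snhg11 rises in vascular nuclei.

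Shares of nuclei with a count were also highest in neurons for each of the 6 RNAs. After each nucleus was thinned at random to 500 UMIs, 93.0 ± 1.89% of saline neurons had at least 1 UMI of Meg3, against 23.7 ± 4.17% of microglia (SD, n = 4). The highest share outside neurons was 29.1 ± 6.14%, in perivascular macrophages. Microglia were chosen as a comparison for free RNA, which itself was not measured. Without thinning the shares of neurons and microglia were 99.7% and 41.3%, at median depths of 4998 and 1000 UMIs per nucleus. Snhg11 was counted in 86.8 ± 4.54% of thinned neurons, 40.5 ± 4.71% of vascular nuclei and 24.2 ± 2.32% of microglia. Kcnq1ot1 was counted in 22.4 ± 1.73% of neurons, 18.8 ± 2.10% of cluster 13 and 8.66 ± 1.89% of microglia. Rian was counted in 28.3 ± 1.90% of neurons and 4.62 ± 1.03% of microglia. Mirg and Miat were sparse even in neurons, at 6.08 ± 0.93% and 6.52 ± 0.37%, and under 2% in each other class.

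The ratio of UMIs of Rian to UMIs of Meg3, neighbours on chromosome 12, differed between classes. In saline neurons it was 0.0867 ± 0.0072 and in oligodendrocytes 0.170 ± 0.0096 (SD, n = 4). All 17 mice had a ratio of 0.0774 to 0.0970 in neurons and of 0.122 to 0.194 in oligodendrocytes, so the ranges did not overlap. Microglia (0.152 ± 0.022) and cluster 13 (0.158 ± 0.011) were close to oligodendrocytes in saline. Not every saline mouse had a higher ratio outside neurons. In perivascular macrophages, a small class, the saline mouse of batch 1 had 0 CPM of Rian beside 338 CPM of Meg3. Mirg per Meg3 showed no such shift, at 0.0151 ± 0.0015 in neurons and 0.0179 ± 0.0034 in oligodendrocytes, with overlapping ranges. Which sources make up the glial counts was not tested.

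Among neurons the members fell into distinct patterns over the authors' clusters. Clusters 1 and 4, led by GABAergic genes such as Gad2, and cluster 12, led by Ntng1 and Prkcd and holding subcortical excitatory markers, had the highest Meg3. In saline mice the means were 10812 ± 447, 10721 ± 293 and 10044 ± 335 CPM, with cluster 1 overlapping both others and cluster 12 below all mice of cluster 4. Clusters 3, 5, 6, 7 and 8, which carry cortical and hippocampal excitatory markers, stood at 6661 to 7787 CPM, with overlapping neighbours. The authors' doublet calls covered 9.46% of cluster 1, 45% of cluster 4, 30.2% of cluster 5, 62% of cluster 6, 27.1% of cluster 10 and 30.4% of cluster 12. Without doublets Meg3 was 10781, 11135 and 10187 CPM in clusters 1, 4 and 12 and 7128 and 7897 CPM in clusters 5 and 6. Rian, Mirg and Snhg11 also had their 3 highest means in clusters 1, 4 and 12, though for Snhg11 cluster 8 overlapped them.

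Cluster 9, led by Glis3 and carrying the dentate granule markers Prox1 and C1ql2, was low in 4 of the 6 RNAs. Its saline values were 1763 ± 208 CPM of Meg3, 195 ± 33.2 of Rian, 27.5 ± 5.62 of Mirg and 827 ± 126 of Snhg11. Each of these lay below the lowest saline value of clusters 1, 3, 4, 5, 6, 7, 8, 10, 12 and 16. Cluster 9 was not low in the other two: Miat stood at 154 ± 9.80 CPM, next to cluster 8 (164 ± 12.4) with overlapping ranges, and Kcnq1ot1 at 499 ± 30.6 CPM. Per UMI of Meg3, cluster 9 had 0.0878 ± 0.0094 UMIs of Miat, against 0.0272 ± 0.0011 in cluster 5 and 0.0098 ± 0.00048 in cluster 1. The authors' doublet calls covered 12% of cluster 9, and its median depth was 3961 UMIs per nucleus, near that of cluster 8 (3991).

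Miat was lower in clusters 1, 4 and 12, the 3 highest in Meg3, than in the cortical and hippocampal excitatory clusters. It was highest in clusters 5, 3, 6, 7, 8 and 9, at 154 to 188 CPM, and stood at 106 ± 5.49 CPM in cluster 1, 110 ± 3.77 in cluster 4 and 105 ± 7.80 in cluster 12. The lowest saline mouse of cluster 9, the last of the 6, had 148 CPM, and the highest of clusters 4 and 12 had 114 and 116 CPM. Cluster 10, led by Rarb, Rgs9 and Drd2, had less, 75.7 ± 13.9 CPM. Kcnq1ot1 varied least, from 417 CPM in cluster 7 to 638 CPM in cluster 4 when cluster 16 is left out, and neighbours in that order overlapped. In cluster 16 a saline mouse with 23 nuclei had 1135 CPM and the other 3 had 399 to 544 CPM.

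**Figure D3:**
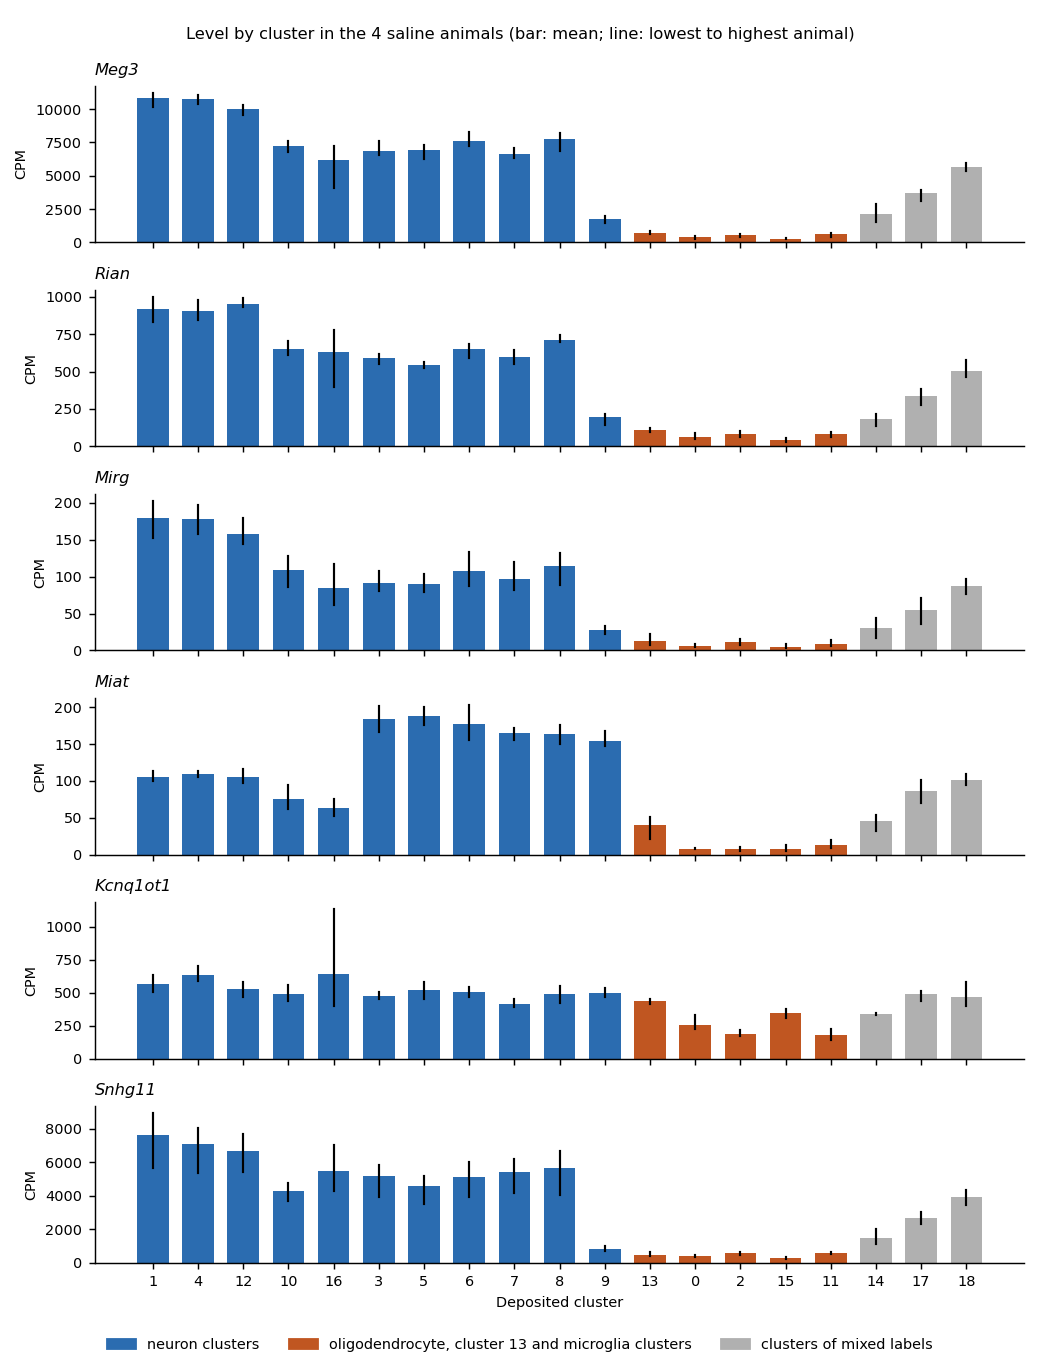
CPM by deposited cluster in saline mice (one panel per RNA; bars are means of 4 mice and lines run from the lowest to the highest mouse; blue bars are neuron clusters, orange are oligodendrocyte, microglia and cluster 13, grey are mixed). Cluster 9 is low in Meg3, Rian, Mirg and Snhg11 but not in Miat or Kcnq1ot1.

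Cluster 16, led by Gabra6, a GABA receptor subunit gene known from cerebellar granule cells, was not the same in every mouse. In 4 mice (1 Malat1 ASO, 2 anti-TfR:Malat1 and 1 OTV:Malat1) it held 363 to 1249 nuclei, with 522 to 583 CPM of Gabra6. In the other 13 it held 22 to 93 nuclei, with a median of 0 and at most 200 CPM of Gabra6. Meg3 was 2275 to 2690 CPM in the first 4 and 3412 to 7481 CPM in the 13, and Miat was 8.39 to 20.7 and 39.9 to 133 CPM. All saline mice were among the 13, so the saline bars of cluster 16 do not describe nuclei rich in Gabra6. Clusters 17 and 18 also hold mixtures, with 76.5% and 82.7% doublets by the authors' call; without doublets the saline Meg3 of cluster 17 was 358 in place of 3698 CPM. Cluster 14, which joins astrocytes with other nuclei, went from 2093 to 951 CPM of Meg3 without doublets.

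The genes most like each member across the 20 clusters were found by Pearson correlation of log2(CPM + 1) over summed saline mice, among 10233 genes with a mean of 10 CPM or more. Clusters share libraries and neighbouring cell types, so these correlations are descriptions. Meg3 was most like Snhg11 (r = 0.99), A230006K03Rik (0.989) and Cntnap2 (0.978), a cell adhesion gene. Rian was most like Rtl1 (0.993), Mirg (0.993) and B830012L14Rik (0.992), and Mirg like B830012L14Rik (0.996), Rian and Rtl1 (0.99). Both Rtl1, a paternally expressed gene, and B830012L14Rik lie between the start of Meg3 and the end of Mirg, at chr12:109589193-109600330 and chr12:109695586-109702587. In saline neurons B830012L14Rik stood at 172 ± 16 and Rtl1 at 30.0 ± 5.96 CPM. Snhg11 was most like Meg3, A230006K03Rik (0.985) and Cntnap2 (0.977). Miat was most like Svop (0.985), a synaptic vesicle protein gene, Shank1 (0.981), a postsynaptic scaffold gene, and Fbxo41 (0.981). For Kcnq1ot1 the values were lower, 0.933 for Arntl2, 0.928 for Greb1l and 0.926 for Gm12709. Between members, r was lowest for Kcnq1ot1 with Miat (0.553).

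Treatment was then compared, asking whether lowering Malat1, or the carriers, came with another level of these RNAs. None of the 6 passed the threshold (adjusted p under 0.05, edgeR quasi-likelihood test with Benjamini-Hochberg adjustment over 21375 genes) in any of the 4 comparisons over all nuclei. The share of all genes called there was 0% for Malat1 ASO, 0% for anti-TfR:Malat1 and 0% for OTV:Malat1 against saline, and 0% for OTV:Malat1 against anti-TfR:Malat1. Of the 24 tests of members over all nuclei, 0 had an unadjusted p under 0.05 by edgeR, and DESeq2 called 0. The 3 comparisons against saline share the saline mice. Malat1 itself did not pass over all nuclei, with a change of -0.84 in OTV:Malat1 against saline (SE 0.20), so the threshold left a change of this size in Malat1 uncalled. The 95% bounds of the 6 members over all nuclei reached no further than -0.45 and 0.34 in the 4 comparisons.

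The changes of this fit and the CPM values are on different scales. The fit divides each library by its total and by a TMM factor (trimmed mean of M values), which sets most genes to no change, while CPM and the within-batch differences use the total alone. In neurons the TMM factors averaged 1.05 in OTV:Malat1, 1.00 in saline and 0.98 in anti-TfR:Malat1, so a fitted change of OTV:Malat1 lies lower than the ratio of CPM. With library sizes alone, an alternative chosen after these values were seen, the median change of all genes in neurons was 0.10 for OTV:Malat1 mice against anti-TfR:Malat1 mice and 0.06 against saline, in place of 0.01 and 0.0020. Changes of the members are therefore relative to most other genes of the nuclei.

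Meg3 over all nuclei changed by 0.05 in Malat1 ASO (95% interval -0.11 to 0.21), 0.05 in anti-TfR:Malat1 (-0.09 to 0.20) and -0.00094 in OTV:Malat1 (-0.17 to 0.17) against saline, on the log2 scale. In neurons the anti-TfR:Malat1 mice ran from 7682 through a median of 7929 to 8456 CPM, and the OTV:Malat1 mice were at 8312, 8631 and 8053 CPM. The Malat1 ASO mice were at 8374, 7871, 7967 and 8464 CPM, so all groups overlapped with saline. Rian in neurons was 676, 668 and 690 CPM in OTV:Malat1, against 639, 722, 694 and 722 CPM in saline, whose range holds all 3. Its change in neurons in OTV:Malat1 was -0.09 (-0.25 to 0.07) against saline and -0.14 (-0.29 to 0.01) against anti-TfR:Malat1. With library sizes alone they were -0.03 and -0.05. Within the 3 batches that hold both groups, the log2 differences of the CPM of Rian in neurons between OTV:Malat1 and saline were -0.09, -0.06 and -0.07 in batches 2, 3 and 4. Against anti-TfR:Malat1 the differences in the same batches were -0.05, 0.01 and -0.08. For Meg3 in neurons they were -0.01, 0.02 and 0.11 against saline and 0.04, 0.08 and 0.05 against anti-TfR:Malat1. How many of all genes had differences of one sign in these batches was not counted.

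Mirg in neurons was 104, 132, 144 and 108 CPM in saline and 118, 146 and 102 CPM in OTV:Malat1, which overlap. Miat changed by -0.02 in neurons of OTV:Malat1 against saline (-0.22 to 0.17). Kcnq1ot1 in neurons was 505, 458 and 562 CPM in OTV:Malat1 and 465 to 698 CPM, with a median of 527, in anti-TfR:Malat1. The change between these groups was -0.20 (-0.45 to 0.06), the largest in size of the members in neurons. With library sizes alone it was -0.11. Within batches 2, 3 and 4 the log2 differences of CPM were 0.08, -0.06 and -0.05; the highest anti-TfR:Malat1 mouse, at 698 CPM, is in batch 1, which holds no OTV:Malat1 mouse. Without that mouse the fitted change was -0.12. Snhg11 in neurons was 5971, 5544, 6374 and 4144 CPM in saline and 5311, 6655 and 4581 CPM in OTV:Malat1, so the groups overlap. Its fitted change was -0.06 (-0.38 to 0.26), and with library sizes alone 0.0019. Within batches 2, 3 and 4 the log2 differences of its CPM were -0.06, 0.06 and 0.14, not all of one sign.

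The tests above leave out the batch, which differed for many genes. With the batch as a block, none of the 6 passed over all nuclei or in neurons, and 0 of all genes tested passed in those fits in any of the 4 comparisons either. The intervals of Rian and Mirg in some of these comparisons then left out 0 with TMM factors. No member's did when the block was joined with library sizes alone. With the block and TMM factors, 4.03% of all genes over all nuclei had an unadjusted p under 0.05 in OTV:Malat1 against anti-TfR:Malat1 (edgeR). The share was 2.10% against saline over all nuclei, and 4.28% against anti-TfR:Malat1 in neurons. With the block and library sizes alone these shares were 12.01%, 4.62% and 11.07%. Rian over all nuclei changed by -0.20 (-0.33 to -0.06) against anti-TfR:Malat1 in OTV:Malat1 mice (adjusted p = 0.878, edgeR), and by -0.09 (-0.18 to 0.01) with library sizes alone. The log2 differences of its CPM over all nuclei within batches 2, 3 and 4 were -0.10, -0.08 and -0.03 against anti-TfR:Malat1 and -0.07, -0.13 and -0.04 against saline. For Snhg11 they were 0.08, 0.20 and 0.04, and -0.03, -0.01 and 0.18. These sums move with the neuron share. In batch 3 it was 57.2% in OTV:Malat1, 65.4% in saline and 68.3% and 65.0% in anti-TfR:Malat1, while in batch 4 the OTV:Malat1 mouse had the highest share. In neurons alone the batch 3 differences of Rian were 0.01 against anti-TfR:Malat1 and -0.06 against saline. Sums over neurons in turn move with the mix of neuron clusters, which was not held fixed. Rian in neurons changed by -0.16 (-0.28 to -0.04) in OTV:Malat1 against anti-TfR:Malat1 (adjusted p = 0.906, edgeR), and by -0.06 (-0.15 to 0.03) with library sizes alone. Mirg over all nuclei changed by -0.13 (-0.25 to -0.02) in OTV:Malat1 against saline and by -0.13 (-0.23 to -0.02) against anti-TfR:Malat1, with adjusted p = 1.000 and 0.878 (edgeR). With library sizes alone these were -0.05 (-0.18 to 0.07) and -0.02 (-0.13 to 0.10). The log2 differences of Mirg CPM over all nuclei within batches 2, 3 and 4 were -0.12, -0.04 and -0.05 against saline and -0.02, 0.10 and -0.11 against anti-TfR:Malat1. Kcnq1ot1 in neurons changed by -0.15 (-0.32 to 0.01) for OTV:Malat1 mice against anti-TfR:Malat1 mice, and by -0.05 (-0.19 to 0.08) with library sizes alone. The median of all genes in neurons with the block and library sizes alone was 0.11 in OTV:Malat1 against anti-TfR:Malat1.

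In neurons none of the 6 passed in any comparison either, with 0% of all 20601 genes called in each of the 4. The log2 differences of Malat1 CPM in OTV:Malat1 against saline within batches 2, 3 and 4 were -0.47, -0.66 and -0.29 in neurons. They were -2.66, -3.10 and -2.61 in oligodendrocytes, and -1.45, -1.62 and -1.16 in astrocytes. In oligodendrocytes 0 of the 6 passed. The share of genes called there was 0.0214% for OTV:Malat1 against saline, 0.00715% for OTV:Malat1 against anti-TfR:Malat1 and 0% for the other comparisons. The 3 genes called against saline include Malat1, and the 1 called against anti-TfR:Malat1 was Malat1. Changes of members in oligodendrocytes in OTV:Malat1 against saline ran from -0.21 for Rian to 0.08 for Snhg11, with 95% bounds reaching -0.78 and 0.72, so changes of that size are not excluded there. In astrocytes 5 members could be tested and 0 passed, against 0.012% of genes in OTV:Malat1 against saline, 0.012% against anti-TfR:Malat1 and 0% in the others. The 1 gene called in each of these OTV:Malat1 comparisons was Malat1. In microglia, vascular nuclei, perivascular macrophages and cluster 13, where 4, 4, 2 and 6 members were tested, 0 passed and 0% of genes were called in each comparison.

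**Figure D4:**
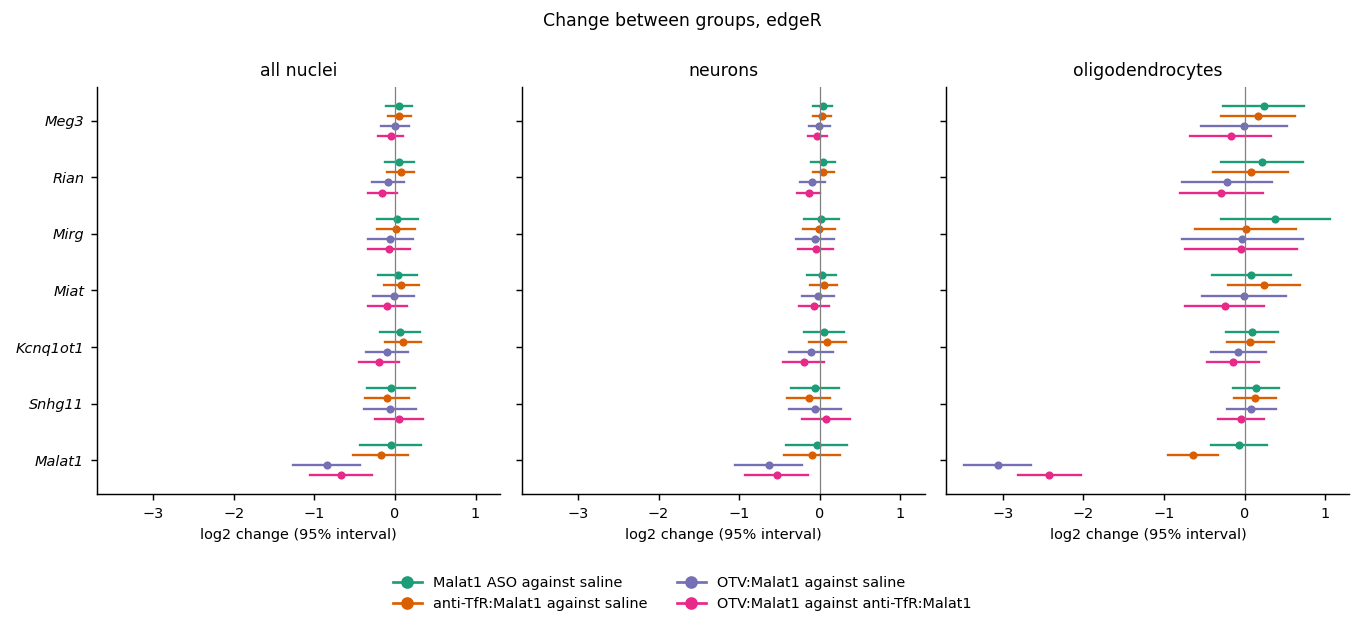
Change between groups on the log2 scale (points) with 95% intervals (lines) for the 6 RNAs and Malat1, in all nuclei, neurons and oligodendrocytes. The intervals of the 6 RNAs cross 0 in the 4 comparisons of each panel, while those of Malat1 lie below 0 for OTV:Malat1.

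Of 156 tests of members in classes and all nuclei, 5 (3.21%) had an unadjusted p under 0.05 by edgeR and 3 by DESeq2, where 2.12% of all gene tests in the same sets of nuclei had one by edgeR. Among these, 3 were in vascular nuclei of OTV:Malat1 mice, where 4.65% of genes had one against saline and as many against anti-TfR:Malat1. Meg3 there was 1150, 483 and 1447 CPM in OTV:Malat1, from 119, 43 and 77 UMIs, and 468, 542, 621 and 850 CPM in saline. The change was 0.73 (SE 0.33, adjusted p = 0.999, edgeR). Against anti-TfR:Malat1, whose mice ran from 498 to 732 CPM, it was 0.81 (SE 0.31, adjusted p = 0.999, edgeR). The lowest OTV:Malat1 mouse lay below the highest of both other groups. Rian changed by 1.04 there against saline (SE 0.41, adjusted p = 0.999, edgeR). It was 164, 101 and 282 CPM in OTV:Malat1 and 70.2, 62.5, 73.6 and 136 CPM in saline, the last from 13 UMIs. The lowest OTV:Malat1 mouse thus lay below the highest saline mouse. The 3 OTV:Malat1 mice had 1750, 1269 and 2724 CPM of the neuron marker list in vascular nuclei, in the order in which Meg3 was given, against 1312 to 1878 CPM in saline. Of the list, Syt1 was 735, 292 and 752 CPM in these mice, against 222 to 545 CPM in saline, and Rbfox3 was 67.7, 33.7 and 132 CPM, against 5.85 to 62.9 CPM. Both were thus above every saline mouse in the 2 mice with the most Meg3. At the same UMI totals, Rian and Rbfox3 rest on far fewer UMIs than Meg3. Snap25 was 193, 168 and 282 CPM, against 117 to 305 CPM, and Celf2 was 754, 775 and 1559 CPM, against 758 to 1038 CPM. The part of neuronal RNA in this result was not tested. The others were Kcnq1ot1 in cluster 13 in OTV:Malat1 against anti-TfR:Malat1 (-0.23, adjusted p = 0.970) and Snhg11 in microglia in Malat1 ASO against saline (0.27, adjusted p = 1.000), both by edgeR.

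By cluster, 108 tests of members were made in each comparison over the 19 clusters that held 20 or more nuclei of every mouse, and 0 passed in each by edgeR or DESeq2. The share of gene tests called over these clusters was 0.000429% for Malat1 ASO, 0.000429% for anti-TfR:Malat1 and 0.00172% for OTV:Malat1 against saline, and 0.00129% for OTV:Malat1 against anti-TfR:Malat1. The 4 calls of OTV:Malat1 against saline and the 3 against anti-TfR:Malat1 were all of Malat1. Malat1 ASO and anti-TfR:Malat1 against saline had 1 call each, of a gene other than Malat1. Unadjusted p-values under 0.05 numbered 2, 2, 1 and 5 of 108 for members in the same order, where 1.77%, 2.46%, 2.8% and 3.47% of the gene tests over these clusters had one.

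Genes related to the members were read from lists made with earlier results of these data known. Over all nuclei, 12 of 12 genes around Meg3 (Dlk1, Rtl1, Dio3 and flanking genes) were tested, 10 of 13 around Kcnq1ot1, 14 of 15 other small nucleolar RNA host genes, 17 of 18 other long noncoding RNAs and 3 of 4 genes of proteins that bind Miat. None passed in any comparison. In OTV:Malat1 against saline the median log2 changes of the lists were -0.02, -0.04, -0.01, -0.04 and -0.04, beside -0.00071 over all genes tested. The small nucleolar RNA host genes had medians of -0.14 in Malat1 ASO and -0.12 in anti-TfR:Malat1 against saline, beside -0.0072 and -0.0026 over all genes tested. Their median was 0.14 in OTV:Malat1 against anti-TfR:Malat1, which shares the anti-TfR:Malat1 mice, beside 0.0079 over all genes. Between batches 7 of these 14 genes were called over all nuclei, where 21.7% of all genes were. Over all nuclei and classes, 276 tests of list genes were made in each comparison and 0 passed, with 1, 6, 2 and 8 unadjusted p-values under 0.05. Of all gene tests in the same sets of nuclei, 2.12% had one over the 4 comparisons together (edgeR).

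Several members differed between batches. A test of the batch terms in the edgeR fit, chosen after the values of each mouse had been seen, called 4 of 6 members over all nuclei, where 21.7% of genes passed. Snhg11 had batch medians of 4893, 4465, 5211 and 3695 CPM over all nuclei (adjusted p = 0.018), Mirg 89.2, 105, 118 and 96.6 (adjusted p = 3.0e-04), Kcnq1ot1 508, 459, 449 and 535 (adjusted p = 0.022) and Rian 541, 615, 600 and 634 (adjusted p = 0.041). In neurons 3 of 6 were called, Mirg, Kcnq1ot1 and Snhg11, against 19.4% of genes. Mirg was highest in batch 3, with 127 to 146 CPM in neurons, above all mice of batch 1 (104 to 112 CPM). Kcnq1ot1 in neurons was 562 to 616 CPM in batch 4 and 458 to 508 CPM in batch 3, with no overlap. Snhg11 in neurons was 3999 to 5005 CPM in batch 4 and 5098 to 6655 CPM in batch 3.

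Meg3 in neurons was steady, with batch medians of 7971, 8202, 8456 and 7887 CPM and a coefficient of variation of 4.17% over 17 mice. Outside neurons it was not. In oligodendrocytes its batch medians were 271, 397, 400 and 566 CPM (adjusted p = 0.020) and in microglia 395, 556, 577 and 719 CPM (adjusted p = 0.0037, edgeR). The neuron marker list moved too, with batch medians of 407, 576, 694 and 672 CPM in oligodendrocytes and 1511, 1744, 1767 and 1904 CPM in microglia, against 9923, 10487, 9809 and 10784 CPM in neurons; in microglia most of the sum is Celf2. The part of these RNAs in the result was not tested. Single mice of neighbouring batches overlapped, except that in microglia batch 1 (375 to 454 CPM) lay below batch 2 (518 to 630 CPM). In oligodendrocytes 3 of 6 members were called (Meg3, Mirg and Kcnq1ot1), against 13.7% of genes. In astrocytes Meg3 and Snhg11 were called, 2 of 5 tested, against 1.42% of genes, and in microglia the same pair, 2 of 4, against 2.94%.

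The batch test called 0 members in vascular nuclei (0.122% of genes), in perivascular macrophages (1.45%) and in cluster 13 (4.55%). Over the 19 clusters it called 24 of 108 tests of members, against 5.92% of all gene tests. These were 8 for Kcnq1ot1, 8 for Snhg11, 7 for Mirg and 1 for Rian, with 0 for Meg3 and Miat. Batch 1 held no OTV:Malat1 mouse, so it gave no within-batch value for that group.

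**Figure D5:**
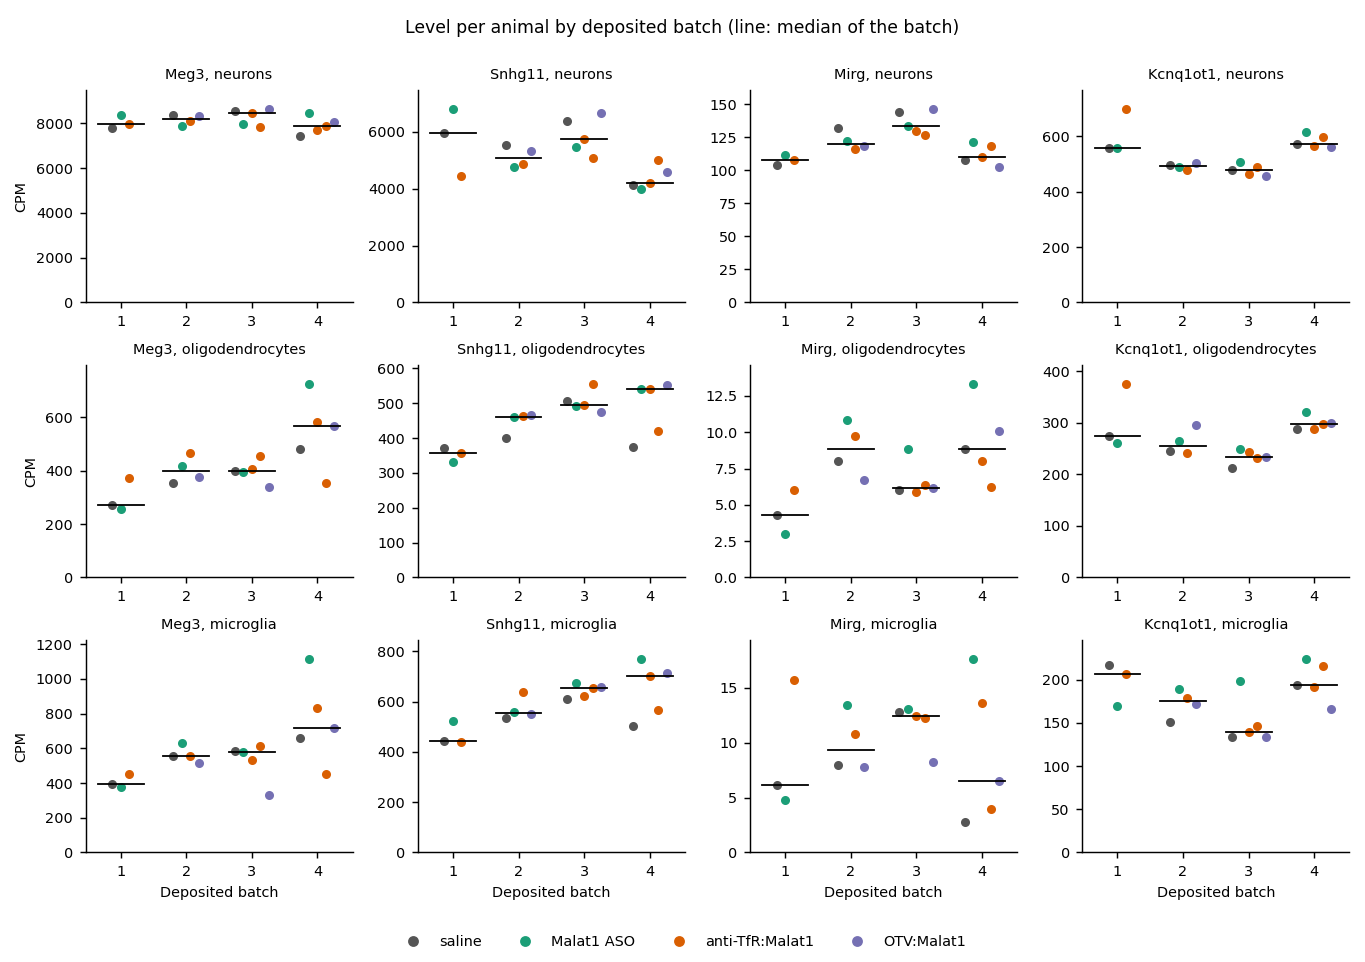
CPM per mouse of 4 RNAs by deposited batch (horizontal axis) in neurons, oligodendrocytes and microglia, coloured by group, with the batch median as a line. Snhg11 and Mirg differ between batches in neurons, and Meg3 is level in neurons but has its lowest median in batch 1 and its highest in batch 4 in the other 2 classes.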

How the data were processed

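Single-nucleus RNA was counted in posterior brain of 17 mice in 4 groups. Per the submitters' processing notes the tools included Cell Ranger 6.0.1 and Seurat 4 with the mm10 build. The authors deposited UMI counts, whole numbers per gene and nucleus with no normalization, for nuclei of at least 500 UMIs and 298 to 4500 genes, and per-nucleus cell type labels, clusters, doublet calls and batches, whose callers are not given in the sources used here. Of the metadata columns 11 were not used. The members and gene lists were chosen with earlier results of these data known.

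UMIs were summed per mouse over all nuclei, 7 classes (label joined with cluster) and 20 clusters, where a mouse had 20 or more nuclei, and scaled to CPM. Sums of all 17 mice were fitted together with edgeR 4.0.16 (filterByExpr, TMM, glmQLFit, glmQLFTest; R 4.3.3), after a test on simulated data, with Benjamini-Hochberg adjustment over all genes of a unit and a threshold of 0.05. Alternatives were DESeq2 1.42.0, other normalizations (library sizes alone added after seeing the data) and filters, only the groups compared, replicate and batch blocks, Malat1 or doublets left out, other nucleus minimums and each mouse left out. All 6 members and Malat1 were named, with the 3 genes most like each member and any list gene past the threshold. Intervals cover 95%. All 6 names matched GENCODE M21 and had a RefSeq promoter. Python 3.11.15 was used for all else.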

Additional observations from a re-analysis of the deposited data

Results flagged for a closer look

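In 142 sets of 4 or 6 mice (1 member in 1 group, over all nuclei or in 1 class), 5 had a mouse far from the others, its gap to the nearest being past Dixon's 95% critical value as a share of the whole range. Chance alone passes that value in about 1 in 20 sets.

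Meg3 in astrocytes was 462 CPM in anti-TfR:Malat1 replicate 5, a mouse of batch 4, and 318 to 339 CPM in the other 5 mice of the group. Rian in vascular nuclei was 136 CPM in saline replicate 4, from 13 UMIs in 81 nuclei, and 62.5 to 73.6 CPM in the other saline mice. Snhg11 in cluster 13 was 637 CPM in saline replicate 3 and 411 to 439 CPM in the other saline mice. Miat in perivascular macrophages was 27.5 CPM in saline replicate 4, from 1 UMI, and 79.6 CPM in anti-TfR:Malat1 replicate 3, from 3 UMIs, with 0 UMIs in every other mouse of those groups.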

How the results depend on the processing

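The 156 changes of members in all nuclei and classes were recomputed under the alternatives, 4205 values in all, and 0 passed the threshold, with a lowest adjusted p of 0.328; 265 uncalled changes took the other sign. The 12 counts of called members stayed at 0 in all 232 recomputations, which include each of the 17 mice left out in turn. The replicate number equals the batch for every saline and Malat1 ASO mouse and for anti-TfR:Malat1 mice 1 to 3, but for no OTV:Malat1 mouse. Same-numbered mice did not all deviate together, so the numbers were not taken as a pairing. The correlation of their deviations from the group means was 0.48, -0.05, 0.67 and 0.60 for Malat1 ASO with saline. For anti-TfR:Malat1 with saline it was 0.39, 0.11, 0.50 and -0.38. The last value sets a mouse of batch 3 against one of batch 4, and all others set mice of the same batch. For those pairs the number cannot be told apart from the batch. With a replicate block the number of members called was 0 in every comparison, and Snhg11 over all nuclei changed by -0.11 in OTV:Malat1 against saline, beside -0.06 without it. Fits with library sizes alone, with and without the batch block, were chosen after seeing the data. They moved the median of all genes over all nuclei to 0.12 and 0.11 for OTV:Malat1 mice against anti-TfR:Malat1 mice, and Snhg11 there to 0.04 and 0.02 in OTV:Malat1 against saline. Saline levels in classes were 0.85 to 1.15 times as high without doublets and 1.05 to 1.12 times as high with Malat1 left out of the total. The second range does not hold for every group. In oligodendrocytes Malat1 took up 12824 to 16314 CPM in OTV:Malat1 and 79633 to 120778 CPM in saline. Leaving it out thus raises the other genes less in OTV:Malat1 than in saline there. In clusters they fell to as little as 0.097 times without doublets, in cluster 17. Thinning to 1000 UMIs moved 37 of 42 shares of nuclei by more than the spread between mice. Miat and Mirg in small classes rest on few UMIs, and no member could be tested in cluster 19.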
